A study of Mus musculus with 4 samples.

Results

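The genes described here are the T cell receptor variable (V) and constant (C) genes of the mouse, taken as every row of the deposited count table whose gene biotype is TR_V_gene or TR_C_gene. They numbered 152 of the 52636 genes in the table, of which 144 were V segments and 8 were C genes. The alpha locus on chromosome 14 held 110 V segments and 1 C gene, and the delta locus, which lies inside it, held 5 V segments and 1 C gene. Segments named for both loci, with dv in the name such as Trav4-4-dv10, are counted here as alpha only. The delta V values below therefore leave them out. The beta locus on chromosome 6 held 22 V segments and 2 C genes, and the gamma locus on chromosome 13 held 7 V segments and 4 C genes. Each V segment had 2 exons in the annotation, a leader exon and the exon of the variable domain.

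RNA sequencing covered 4 libraries, with 2 labelled E4BP4-cKO and the other 2 labelled wild-type, and the labels give the same handling for both groups. Naive CD4 T cells came from spleens of C57BL/6 mice carrying a conditional knockout of E4BP4, the transcription factor encoded by Nfil3, or from wild-type mice. Culture lasted 3 days with 10 ng/ml each of the cytokines IL-6 and IL-21, and blocking antibodies to IL-4 and IFN-γ (10 µg/ml of each) and to TGF-β (20 µg/ml), conditions meant to give T follicular helper (Tfh) cells. The sources used here give no Cre driver, deleted part, sex or age, and the labels do not say whether replicates are separate mice or cultures. Xist, a transcript of the inactive X chromosome, had 1 and 21517 counts in E4BP4-cKO-labelled libraries and 28571 and 17 in wild-type-labelled ones. The replicates of a group thus differ as male and female cells do, so they do not come from the same mouse. The p-values measure the spread between these libraries, which includes this difference and may in part be technical. Nfil3 had 4649 and 3965 counts in E4BP4-cKO-labelled libraries, against 290 and 377 counts in wild-type-labelled ones, which is against the labels. The groups are therefore called by their labels, and the directions given here are differences between labels, not effects of E4BP4 loss.

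A T cell builds each receptor chain by joining 1 V segment to a J segment (with a D segment at beta and delta) on the chromosome, and the joined exon is spliced to a C gene. Most CD4 T cells carry an alpha chain paired with a beta chain, while gamma and delta chains pair in a separate T cell lineage. The C gene counts of a locus therefore report how much of that chain's RNA a culture holds, and the V segment counts report how its clones are spread over the V repertoire. In cultured naive cells, which are polyclonal, many V segments are in use at once. Read counts come from bulk RNA, in which fewer cells using a segment and less RNA per cell cannot be told apart.

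The sequences that the results turn on are the coding parts of V exons, the second exon of each segment, from GENCODE M21 transcripts on GRCm38, written 5′ to 3′. Trbv14 is shown because it had the lowest adjusted p of all 81 V and C genes tested. Its V exon lies at chr6:41135320-41135616 on the plus strand, and the capitals mark TCTGTGCCAGC, a stretch close to the end at which a D or J segment is joined.
Trbv14: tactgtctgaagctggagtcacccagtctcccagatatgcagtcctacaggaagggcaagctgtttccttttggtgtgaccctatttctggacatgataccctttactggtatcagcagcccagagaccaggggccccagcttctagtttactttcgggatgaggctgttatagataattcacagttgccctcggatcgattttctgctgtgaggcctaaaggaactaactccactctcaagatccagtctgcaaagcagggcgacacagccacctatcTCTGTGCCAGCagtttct
TCTGTGCCAGC was the 11-base word found in the largest number of beta V segments, and it is in 11 of the 22 (50%). It is in 0 of the 110 alpha, 0 of the 7 gamma and 0 of the 5 delta V segments over their coding parts, and its reverse complement is in 0 of these 144. Trbv13-2 (V exon chr6:41121539-41121832, plus strand), the most used beta V segment, and Trbv13-3 (V exon chr6:41130292-41130585, plus strand) are shown to give the scale of difference within a beta family. Capitals mark the 23 bases of each that differ from the other in their alignment.
Trbv13-2: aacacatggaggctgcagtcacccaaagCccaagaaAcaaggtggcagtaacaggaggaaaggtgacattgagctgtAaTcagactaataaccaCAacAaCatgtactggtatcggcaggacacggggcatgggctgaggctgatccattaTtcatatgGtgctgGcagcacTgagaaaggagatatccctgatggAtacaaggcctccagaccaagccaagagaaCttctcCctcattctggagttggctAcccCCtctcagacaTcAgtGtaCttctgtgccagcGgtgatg
Trbv13-3: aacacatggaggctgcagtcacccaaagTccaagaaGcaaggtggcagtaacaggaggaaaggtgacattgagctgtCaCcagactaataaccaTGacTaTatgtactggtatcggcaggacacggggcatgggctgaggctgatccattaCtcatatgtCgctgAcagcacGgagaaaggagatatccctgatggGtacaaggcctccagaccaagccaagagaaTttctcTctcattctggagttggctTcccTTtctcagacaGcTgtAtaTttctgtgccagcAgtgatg
Trav11 (V exon chr14:53519569-53519859, plus strand) supplies the invariant alpha chain of natural killer T (NKT) cells. Its duplicate Trav11d (V exon chr14:52824623-52824912, plus strand) has the same V exon without the final base, which is in capitals.
Trav11: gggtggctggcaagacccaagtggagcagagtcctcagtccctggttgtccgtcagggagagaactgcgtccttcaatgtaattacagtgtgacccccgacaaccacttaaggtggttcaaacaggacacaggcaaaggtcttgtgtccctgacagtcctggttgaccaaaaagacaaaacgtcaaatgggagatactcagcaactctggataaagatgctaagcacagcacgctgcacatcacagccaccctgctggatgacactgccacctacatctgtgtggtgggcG
Trav13n-2 (V exon chr14:53254039-53254317, plus strand) had all its counts in 1 library. It is identical over its 331 coding bases to Trav13d-2 (V exon chr14:52943011-52943289, plus strand), so that reads within it fit both copies, and by what rule each got its counts is not stated.
Trav13n-2: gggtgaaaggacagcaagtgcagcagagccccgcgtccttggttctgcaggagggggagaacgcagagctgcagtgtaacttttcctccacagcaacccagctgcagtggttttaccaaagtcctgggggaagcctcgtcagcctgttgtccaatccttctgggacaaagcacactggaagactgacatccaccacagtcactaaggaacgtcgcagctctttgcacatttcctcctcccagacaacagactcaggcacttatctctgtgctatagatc

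Depth and identity were checked before the members were compared. Library totals were 26579592 and 19057077 counts in E4BP4-cKO-labelled libraries and 21543872 and 24447091 in wild-type-labelled ones, so that a single count was worth 0.0385 to 0.0546 CPM (counts scaled to library size with TMM factors). The V and C genes together took 0.126% and 0.152% of the counts in E4BP4-cKO-labelled libraries and 0.134% and 0.139% in wild-type-labelled ones. The summed CPM of 7 CD4 T cell markers was 2977 and 3265 in E4BP4-cKO-labelled libraries and 3242 and 3215 in wild-type-labelled ones, with 0 of the 7 called. The sum joins differences in opposite directions. Cd5 had 721 and 478 CPM in E4BP4-cKO-labelled libraries, against 1032 and 947 CPM in wild-type-labelled ones. Cd28 also lay lower without overlap, Cd3d, Cd3g and Cd4 lay higher without overlap, and Cd3e and Trac overlapped. Groups did not overlap for 68.2% of all genes tested. Cd8a and Cd8b1 together had 12.96 and 7.48 CPM in E4BP4-cKO-labelled libraries and 7.18 and 7.46 CPM in wild-type-labelled ones. The summed markers of B cells, of mast cells and basophils, and of myeloid cells differed between the groups. The summed CPM of 7 B cell markers was 79.9 and 38.8 in E4BP4-cKO-labelled libraries, against 379 and 376 in wild-type-labelled ones, with Ighm and Igkc called lower. The 6 mast cell and basophil markers summed to 1601 and 1238 CPM in E4BP4-cKO-labelled libraries, against 443 and 93.8 CPM in wild-type-labelled ones, with 2 called higher. The myeloid markers summed to 216 and 162 CPM in E4BP4-cKO-labelled libraries, against 32.1 and 14.3 CPM in wild-type-labelled ones, with 5 called higher. The Tfh markers Bcl6 (14.3 ± 1.31 CPM in E4BP4-cKO-labelled libraries and 19.8 ± 1.24 in wild-type-labelled ones) and Cxcr5 (7.21 ± 1.93 and 6.93 ± 1.70 CPM in the same order, SD, n = 2 each) were detected in every library, and 1 of the 5 Tfh markers, Icos, was called higher. Pdcd1 had 83.2 ± 18.7 CPM in E4BP4-cKO-labelled libraries and 134 ± 21.8 CPM in wild-type-labelled ones (SD, n = 2 each), with an adjusted p of 0.0710 by edgeR. Il21 had 112 ± 41.7 CPM in E4BP4-cKO-labelled libraries and 185 ± 39.8 CPM in wild-type-labelled ones, with an adjusted p of 0.141 by edgeR. The part of these markers in the results below was not tested.

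Of the 152 V and C genes, 132 had at least 1 count in some library and 20 had 0 in all 4, which allows up to 3 counts or 0.115 to 0.164 CPM per library. Those at 0 were 19 alpha V segments and Trdv2-1. Of the 19, 15 have another segment with an identical coding part. In each of the 19, at most 17.4% of the 50-base windows of the transcript are found in no other V gene, and in Trdv2-1 38.8% are. For all 20 the bound therefore covers only reads that the counting assigned to them. A filter on low counts left 81 to be tested, made up of 50 of the 110 alpha V segments, 18 of the 22 beta, 3 of the 7 gamma and 2 of the 5 delta V segments, and all 8 C genes. In edgeR's quasi-likelihood test with Benjamini-Hochberg adjustment over all 15503 genes tested, 0 of the 81 were called higher and 0 lower at an adjusted p under 0.05, and the lowest adjusted p was 0.0535. Across all genes tested 14.2% were called, 7.68% higher and 6.53% lower. At an unadjusted p under 0.05 stood 2 of the 81, Trbv14 and Trav8n-2, against a background of 35.7%. DESeq2 called 1 of the 81, Trbv14, and without the filter on low counts edgeR called 5 V segments, which are described below. Leaving out each library in turn gave at most 1 call in either direction, Trav13n-2 higher without replicate 1 labelled E4BP4-cKO and Trav3d-3 lower without replicate 2 labelled wild-type.

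The log2 fold change (E4BP4-cKO over wild-type) was positive for 48 and negative for 33 of the 81, with a median of 0.11 and a range from -0.95 to 1.40. The median over all genes tested was 0.02. The CPM values of the groups did not overlap for 25 of the 81 (30.9%), with the E4BP4-cKO-labelled libraries above for 20 and below for 5, against 68.2% of all genes tested. These counts differ in precision from those of other genes, since the 81 had a median of 41.25 counts per library and all genes tested one of 461. The 95% interval of the fold change lay within 2-fold either way for 21 of the 81 (25.9%) and for 52.1% of all genes tested. Such intervals were reached by 12 of the 18 beta V segments tested and by 3 of the 50 alpha V segments, so for most alpha segments the interval reached past 2-fold in at least 1 direction.

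**Figure D1:**
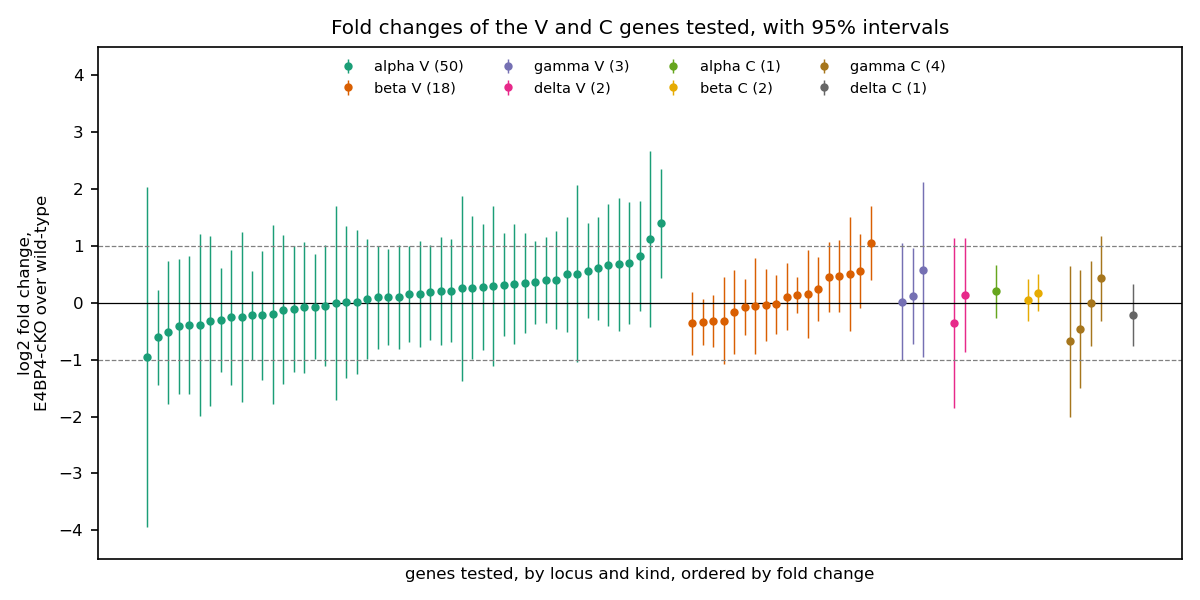
Log2 fold change (E4BP4-cKO over wild-type) of each of the 81 V and C genes tested, grouped by locus and kind, with bars for the 95% interval from edgeR and dashed lines at a 2-fold change. The 18 beta V segments have narrower intervals than most of the 50 alpha V segments, and the intervals of 2 V segments exclude 0.

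Among the C genes, those of the beta chain were the most abundant and none of the 8 was called. Trbc2, the second beta constant gene along the locus (chr6:41546730-41548352), had 440 and 539 CPM in E4BP4-cKO-labelled libraries, against 468 and 475 CPM in wild-type-labelled ones. Trbc1, the first (chr6:41538218-41539881), had 254 and 305 CPM in E4BP4-cKO-labelled libraries, against 245 and 249 CPM in wild-type-labelled ones. Trac, the alpha constant gene (chr14:54220521-54224206), had 267 and 371 CPM in E4BP4-cKO-labelled libraries, against 292 and 263 CPM in wild-type-labelled ones. In each of these 3 genes replicate 2 labelled E4BP4-cKO was the highest library. The groups overlapped for Trbc2 and Trac and did not for Trbc1. The log2 fold changes were 0.05 (SE 0.15, adjusted p = 0.824) for Trbc2, 0.18 (SE 0.13, adjusted p = 0.375) for Trbc1 and 0.20 (SE 0.19, adjusted p = 0.482) for Trac, each by edgeR. The intervals of the fold ran from 0.805 to 1.34 for Trbc2, from 0.900 to 1.43 for Trbc1 and from 0.832 to 1.59 for Trac. The joined exon of a beta chain transcript is spliced to either Trbc1 or Trbc2. The Trbc2 share of their summed counts was 63.4% and 63.9% in E4BP4-cKO-labelled libraries, against 65.7% and 65.6% in wild-type-labelled ones. The exons of Trbc1 and Trbc2 are nearly alike, and how reads that fit both were treated is not stated in the sources at hand.

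The delta and gamma constant genes were far lower, and in most of them the replicates of at least 1 group lay far apart. Trdc, the delta constant gene (chr14:54142851-54148868), had 409 and 268 counts in E4BP4-cKO-labelled libraries, against 320 and 528 counts in wild-type-labelled ones. Its log2 fold change was -0.22 (SE 0.22, adjusted p = 0.513 by edgeR). Scaled to library size, Trdc had 15.7 and 14.6 CPM in E4BP4-cKO-labelled libraries, against 14.6 and 20.7 CPM in wild-type-labelled ones, so the E4BP4-cKO-labelled pair lay close together. Tcrg-C2 (chr13:19304649-19307551, minus strand), the most abundant gamma constant gene, had 766 and 423 counts in E4BP4-cKO-labelled libraries, against 418 and 863 counts in wild-type-labelled ones. Tcrg-C4 (chr13:19344558-19352756) had 388 and 152 counts in E4BP4-cKO-labelled libraries, against 240 and 538 counts in wild-type-labelled ones. Tcrg-C1 (chr13:19214103-19217024) had 280 and 155 counts in E4BP4-cKO-labelled libraries, against 121 and 223 counts in wild-type-labelled ones. In Trdc, Tcrg-C1, Tcrg-C2 and Tcrg-C4 the same pair of libraries held the higher counts, replicate 1 labelled E4BP4-cKO and replicate 2 labelled wild-type, and the groups overlapped. Scaled to library size the same pair was higher, but narrowly for Tcrg-C1. That gene had 11.7 and 9.16 CPM per kilobase in E4BP4-cKO-labelled libraries, against 5.99 and 9.47 in wild-type-labelled ones. Tcrg-C3 (chr13:19260884-19263528), the least abundant, had 15 and 5 counts in E4BP4-cKO-labelled libraries, against 18 and 15 counts in wild-type-labelled ones, and in CPM both E4BP4-cKO-labelled libraries lay below both of the wild-type-labelled ones. The log2 fold changes of the 4 gamma constant genes lay between -0.67 (Tcrg-C3, SE 0.53) and 0.43 (Tcrg-C1, SE 0.30), with adjusted p from 0.354 to 0.984. Per length, over all 4 libraries, levels ran in the order Trbc2 (695 CPM per kilobase), Trbc1 (351), Trac (319), Tcrg-C2 (28.9), Tcrg-C4 (14.04), Tcrg-C1 (9.07), Trdc (4.25) and Tcrg-C3 (0.870). Trbc1 and Trac overlapped in that order across libraries, at 327 to 407 and 281 to 396 CPM per kilobase, as did Tcrg-C2 and Tcrg-C4, at 20.9 to 37.1 and 8.42 to 21.4, and Tcrg-C4 and Tcrg-C1, which lay at 5.99 to 11.7.

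**Figure D2:**
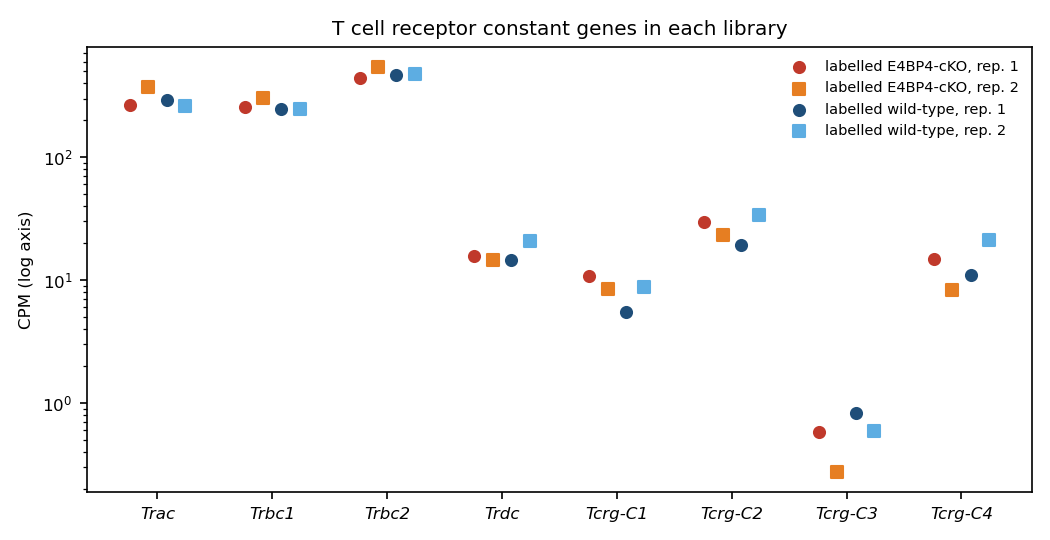
CPM (log axis) of the 8 constant genes in each of the 4 libraries, 1 point per library. Trac, Trbc1 and Trbc2 lie between 245 and 539 CPM, and the gamma and delta constant genes between 0.273 and 33.9 CPM.

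Relative to the alpha and beta chains, gamma and delta constant RNA split the libraries across the groups. There were 8.02 and 4.75 gamma C counts per 100 beta C counts in E4BP4-cKO-labelled libraries, against 5.11 and 8.88 in wild-type-labelled ones. There were 5.89 and 3.95 Trdc counts per 100 Trac counts in E4BP4-cKO-labelled libraries, against 5.004 and 7.89 in wild-type-labelled ones. Both ratios were higher in the pair of libraries with few Xist reads, a transcript of the inactive X chromosome. Xist had 1 and 21517 counts in E4BP4-cKO-labelled libraries and 28571 and 17 counts in wild-type-labelled ones. Its part in the ratios was not tested, and with 1 such library in each group it does not follow the groups. The summed CPM of 7 gamma delta T cell markers, which include Trdc, was 60.6 and 74.6 in E4BP4-cKO-labelled libraries, against 38.9 and 52.3 in wild-type-labelled ones, and 0 of the 7 were called.

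Summed over each locus, RNA of the alpha and beta chains differed between groups by less than it did between the E4BP4-cKO-labelled libraries. The alpha V segments summed to 79.7 ± 20.3 CPM in E4BP4-cKO-labelled libraries and 71.9 ± 7.59 CPM in wild-type-labelled ones (SD, n = 2 each). The beta V segments summed to 190 ± 22.1 CPM in E4BP4-cKO-labelled libraries and 183 ± 5.02 CPM in wild-type-labelled ones. The beta C genes summed to 769 ± 106 CPM in E4BP4-cKO-labelled libraries and 718 ± 8.40 CPM in wild-type-labelled ones. Replicate 2 labelled E4BP4-cKO was the highest library in each of these sums, and without it the log2 ratio of the groups turned negative, to -0.14 for alpha V, -0.07 for beta V, -0.06 for Trac and -0.05 for beta C. The J segments of the same loci showed the same library on top, with alpha J sums of 16.8 and 32.0 CPM in E4BP4-cKO-labelled libraries and 16.6 and 17.9 CPM in wild-type-labelled ones, and beta J sums of 43.5 and 57.5 CPM against 42.8 and 43.9 CPM. Gamma V segments summed to 9.70 ± 0.748 CPM in E4BP4-cKO-labelled libraries and 8.63 ± 3.67 CPM in wild-type-labelled ones, and delta V segments to 2.12 ± 0.215 and 2.05 ± 0.0484 CPM in the same order. An exact permutation test of these sums was not used, since with 2 libraries against 2 its smallest two-sided p is 0.3333.

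The ratio of V to C reads was steady at alpha and beta. There were 24.5 and 25.4 alpha V counts per 100 Trac counts in E4BP4-cKO-labelled libraries, against 26.4 and 25.3 in wild-type-labelled ones. At beta there were 25.1 and 24.4 V counts per 100 C counts in E4BP4-cKO-labelled libraries, against 25.1 and 25.7 in wild-type-labelled ones. At gamma the ratio was 18.4 and 22.9 in E4BP4-cKO-labelled libraries, against 16.6 and 17.4 in wild-type-labelled ones, and at delta it was 14.4 and 13.4 against 13.8 and 10.04. The groups did not overlap at gamma, overlapped at alpha and delta, and met at beta, where the nearest libraries both stood at 25.1.

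The beta V repertoire was the best measured, with 4540 and 3770 beta V counts in E4BP4-cKO-labelled libraries and 3918 and 4745 in wild-type-labelled ones. Every one of the 22 beta segments was counted in every library. Trbv13-2 led in each library, with 18.8% and 14.96% of beta V counts in E4BP4-cKO-labelled libraries and 16.5% and 15.2% in wild-type-labelled ones. Divided by gene length it also had the largest mean share, 19.1%. The next segments by mean CPM were Trbv3, Trbv1, Trbv31, Trbv2 and Trbv16. Trbv4, Trbv5, Trbv21 and Trbv30 had 2 to 14 counts in each library and were not tested. Most exonic bases of Trbv4 (295 of 393) and Trbv5 (292 of 368) are shared with a long noncoding RNA gene on the same strand, 5830405F06Rik, so reads in the shared bases cannot be told apart from its own.

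Trbv14 had the lowest adjusted p among the V and C genes, and it missed the threshold. It had 150 and 129 counts in E4BP4-cKO-labelled libraries, against 65 and 82 counts in wild-type-labelled ones. As CPM these were 5.77 and 7.04 in E4BP4-cKO-labelled libraries, against 2.97 and 3.22 in wild-type-labelled ones, so both libraries of the one group stood above both of the other. The log2 fold change was 1.05 (SE 0.26, 95% interval 0.40 to 1.70, adjusted p = 0.0535 by edgeR), and over 12 alternative settings the adjusted p ran from 0.0150 to 0.227. It was under 0.05 with DESeq2 (0.0311) and without the filter on low counts (0.0150). The share of Trbv14 within beta V counts was 3.30% (95% Wilson interval 2.82 to 3.86) and 3.42% (2.89 to 4.05) in E4BP4-cKO-labelled libraries, against 1.66% (1.30 to 2.11) and 1.73% (1.39 to 2.14) in wild-type-labelled ones. Taken relative to the beta V total rather than the library, its adjusted p was 0.0521. Intervals on shares cover counting error only. Its 2 exons run from 41135145 to 41135215 and from 41135320 to 41135616, and every 50-base window of its transcript is absent from the other V genes. Trbv14 and Trav8n-2 are named here after their values were seen.

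Of the 18 beta V segments tested, 44.4% had groups that did not overlap in CPM, against 68.2% of all genes tested, and none was called. Beside Trbv14, 4 stood above and 3 below. Trbv12-2 had 11.4 and 10.7 CPM in E4BP4-cKO-labelled libraries, against 6.03 and 8.95 CPM in wild-type-labelled ones (log2 fold change 0.56, SE 0.26, adjusted p = 0.184 by edgeR). Trbv16 had 11.9 and 16.3 CPM in E4BP4-cKO-labelled libraries, against 8.96 and 11.6 CPM in wild-type-labelled ones (0.45, SE 0.25, adjusted p = 0.245). Trbv20 had 8.11 and 11.6 CPM in E4BP4-cKO-labelled libraries, against 7.13 and 7.14 CPM in wild-type-labelled ones (0.46, SE 0.25, adjusted p = 0.246). Trbv13-2 stood above with a fold interval from 0.883 to 1.37, and its share of beta V counts overlapped between groups. The 3 segments that stood below occupy both ends of the locus. Trbv1, the first V segment along it (chr6:40891229-40891885), had 375 and 328 counts in E4BP4-cKO-labelled libraries, against 463 and 485 counts in wild-type-labelled ones (log2 fold change -0.32, SE 0.18, adjusted p = 0.266). Trbv2, the next (chr6:41047340-41047995), had 274 and 256 counts in E4BP4-cKO-labelled libraries, against 376 and 363 counts in wild-type-labelled ones (-0.36, SE 0.22, adjusted p = 0.293). Trbv3, which follows Trbv2 (chr6:41048290-41048828), had a log2 fold change in the other direction (0.24, SE 0.23, adjusted p = 0.482 by edgeR). Trbv31, which lies beyond the C genes on the minus strand (chr6:41557691-41558452), had 332 and 251 counts in E4BP4-cKO-labelled libraries, against 370 and 419 counts in wild-type-labelled ones (-0.33, SE 0.16, adjusted p = 0.203). As shares of beta V counts, Trbv1 took 8.26% and 8.70% in E4BP4-cKO-labelled libraries and 11.8% and 10.2% in wild-type-labelled ones. Trbv31 took 7.31% and 6.66% in E4BP4-cKO-labelled libraries and 9.44% and 8.83% in wild-type-labelled ones. These names were chosen after the values were seen, except those of Trbv1, Trbv2, Trbv3, Trbv13-2, Trbv16 and Trbv31.

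**Figure D3:**
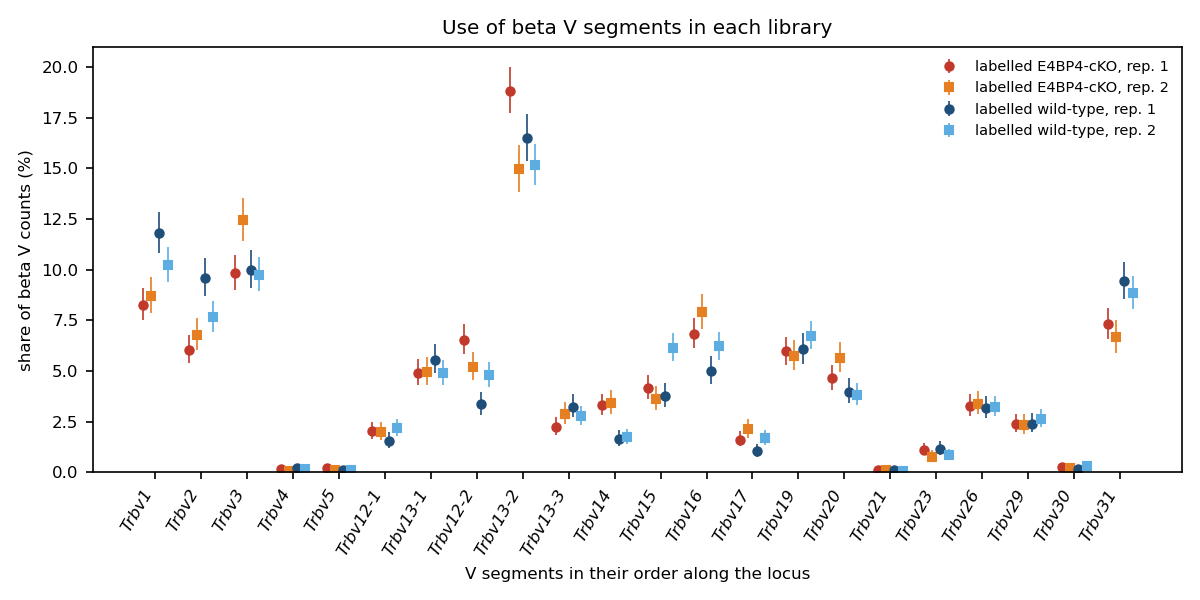
Share of beta V counts (%) taken by each of the 22 beta V segments in each library, in their order along the locus, with 95% Wilson intervals for counting error. Trbv13-2 is the largest in each library, and Trbv14 lies at 3.30% and 3.42% in E4BP4-cKO-labelled libraries, above the 1.66% and 1.73% of the wild-type-labelled ones.

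Pairs of libraries were also set against each other by the share of beta V counts that would have to move to another segment to make them alike. Across groups this distance was 8.90% to 12.4% of beta V counts, and within groups it was 7.30% for the E4BP4-cKO-labelled libraries and 7.45% for the wild-type-labelled ones. The 4 pairs across groups thus lay above both pairs within groups at beta, although they share libraries and were not tested. The chi-square per degree of freedom of their beta V counts was 5.50 to 8.85 across groups and 3.13 and 3.91 within, a measure that takes reads as independent molecules, which amplified reads are not. At alpha the distances were 14.7% to 17.6% across groups, against 14.6% within E4BP4-cKO and 15.95% within wild-type, and the ranges overlapped. The chi-square per degree of freedom of alpha V counts was 2.43 to 2.61 across groups and 1.99 and 2.39 within. By that measure the pairs across groups lay above both pairs within groups, but only narrowly above the wild-type pair. The measure takes in segments whose reads also fit other copies, such as Trav13n-2 and Trav6n-7, and how those reads were counted is not stated. When alpha segments were summed by family, distances across groups ran from 7.21% to 10.8%, against 8.71% and 9.43% within. At gamma and delta the distances within groups also lay inside or above the range across groups.

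**Figure D4:**
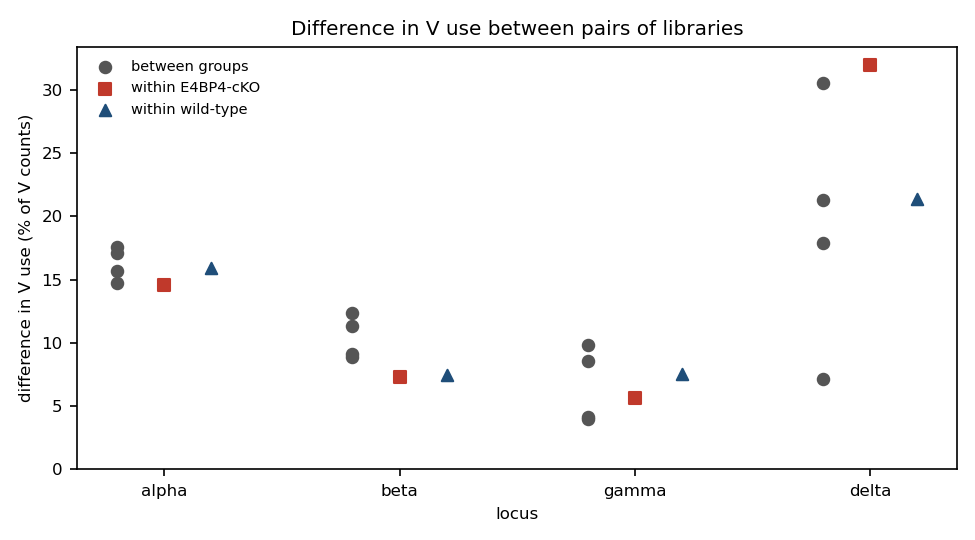
Difference in V use (% of V counts) between each pair of libraries at each locus, for the 4 pairs across groups, the pair labelled E4BP4-cKO and the pair labelled wild-type. At beta the pairs across groups (8.90% to 12.4%) lie above both pairs within groups (7.30% and 7.45%), and at alpha, gamma and delta the ranges overlap.

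The evenness of V use differed little between groups. It was measured as the inverse Simpson index, the number of equally used segments that would give the same concentration. At beta it was 11.9 and 12.8 segments in E4BP4-cKO-labelled libraries, against 11.6 and 12.7 in wild-type-labelled ones. At alpha it was 40.6 and 44.2 in E4BP4-cKO-labelled libraries, against 41.8 and 44.7 in wild-type-labelled ones. At gamma it was 2.05 and 2.20 in E4BP4-cKO-labelled libraries, against 1.92 and 2.07 in wild-type-labelled ones. At delta, on few reads, it was 2.82 and 1.58 in E4BP4-cKO-labelled libraries, against 1.96 and 2.55 in wild-type-labelled ones. The groups overlapped at each locus.

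The alpha repertoire was spread over many more segments, each with few reads. Trav7-4 had the highest mean CPM, with 90 and 74 counts in E4BP4-cKO-labelled libraries, against 72 and 65 counts in wild-type-labelled ones. Trav14-3 had 71 and 67 counts in E4BP4-cKO-labelled libraries, against 74 and 60 counts in wild-type-labelled ones. Trav9-2 had 61 and 77 counts in E4BP4-cKO-labelled libraries, against 39 and 48 counts in wild-type-labelled ones. Of these 3, Trav7-4 and Trav9-2 had groups that did not overlap in CPM, with log2 fold changes of 0.36 (SE 0.29, adjusted p = 0.424) and 0.83 (SE 0.39, adjusted p = 0.189) by edgeR. The other segments of the top 6 were Trav14n-3, Trav4-4-dv10 and Trav9-1, with 44 to 78 counts per library, and their groups overlapped. Of the 50 alpha V segments tested, the E4BP4-cKO-labelled libraries stood above the wild-type-labelled ones in CPM for 14 and below for 1, which together are 30% of them, against 68.2% of all genes tested.

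Trav8n-2 (chr14:53345890-53346424) had the largest log2 fold change of the V and C genes tested. It had 33 and 22 counts in E4BP4-cKO-labelled libraries, against 10 and 12 counts in wild-type-labelled ones. The log2 fold change was 1.40 (SE 0.38, adjusted p = 0.0643 by edgeR), and over 12 alternative settings the adjusted p ran from 0.0564 to 0.310. Its nearest relative, Trav8-2, differs from it by 16 edits over the coding part, and 71.9% of its 50-base windows are found in no other V gene.

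The alpha locus of this strain's reference genome carries duplicated blocks, and V segments named with d or n are copies of the main ones. The main segments numbered 48, the d copies 34 and the n copies 28. Main segments took 73.6% and 75.1% of alpha V counts in E4BP4-cKO-labelled libraries, against 73.6% and 73.4% in wild-type-labelled ones. The d copies took 13.4% and 11.7% in E4BP4-cKO-labelled libraries, against 12.9% and 11.6% in wild-type-labelled ones, and the n copies took 13.01% and 13.2% against 13.6% and 14.99%. The groups overlapped for the d copies, and for the others the shares differed by under 2 percentage points between any pair of libraries.

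Counts tended to be lower for alpha segments that share more of their sequence with other V genes. For each V segment the share of 50-base windows of its transcript that occur in no other V gene or V pseudogene was computed. The median was 30.03% over the 110 alpha segments, and 32 of them had another segment with an identical coding part, while none of the beta, gamma or delta segments had one and beta segments were at least 98.8% distinct. Of the 19 alpha segments at 0 in every library, 15 had an identical copy and the median share was 0%. The 48 alpha segments with a mean of at least 10 counts had a median of 55.8%, and 1 of them had an identical copy. Across the 110 alpha segments the share and the total count were related with a Spearman rho of 0.67, given as a description, since segments share libraries and families. Whether the handling of multi-mapping reads set these zeros was not tested.

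**Figure D5:**
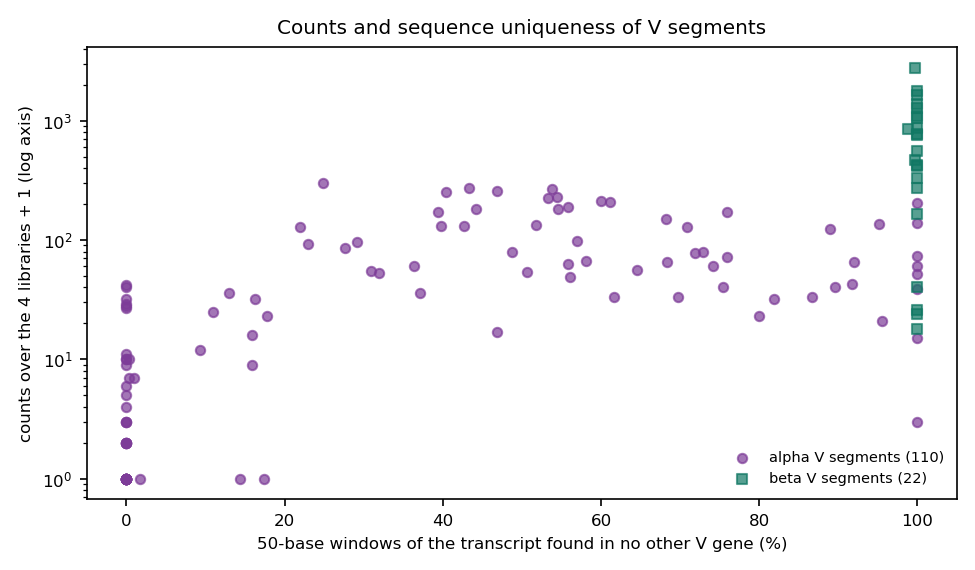
Counts over the 4 libraries plus 1 (log axis) against the share of 50-base windows found in no other V gene (%), for the 110 alpha and 22 beta V segments. The 22 beta segments lie at 98.8% or above, and 15 of the 19 alpha segments without a count have an identical copy.

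Some alpha segments had nearly all their reads in a single library. Trav13n-2, whose sequence is given above, had 0 and 27 counts in E4BP4-cKO-labelled libraries, against 0 and 0 counts in wild-type-labelled ones. Its identical copy Trav13d-2 had 2 and 0 counts in E4BP4-cKO-labelled libraries and 0 and 0 in wild-type-labelled ones. Trav6n-7 had 1 and 0 counts in E4BP4-cKO-labelled libraries, against 0 and 30 counts in wild-type-labelled ones. Trav7n-6 had 2 and 1 counts in E4BP4-cKO-labelled libraries, against 1 and 22 counts in wild-type-labelled ones. Trav3d-3 had 1 and 0 counts in E4BP4-cKO-labelled libraries, against 23 and 4 counts in wild-type-labelled ones. These 4 were too low for the filter, and without it edgeR called Trav13n-2 higher and the other 3 lower, each on the strength of mostly 1 library. Trav9n-3, which was tested, had 0 and 12 counts in E4BP4-cKO-labelled libraries, against 13 and 14 counts in wild-type-labelled ones (log2 fold change -0.95, SE 1.19, adjusted p = 0.612 by edgeR). Its identical copy Trav9d-3 had 0 counts in every library. Trav7n-6 and Trav3d-3 also have segments with an identical coding part, C920008G01Rik and Trav3n-3. In Trav13n-2, Trav6n-7, Trav7n-6, Trav3d-3 and Trav9n-3, 0% of the 50-base windows are found in no other V gene. By what rule reads were assigned among copies is not stated, so these counts do not place the RNA on a single segment. These 5 were named after their values were seen.

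V segments of invariant and innate-like T cells had few counts or did not pass the test. Trav11 had 0 and 0 counts in E4BP4-cKO-labelled libraries, against 1 and 0 counts in wild-type-labelled ones, and Trav11d had 6 and 0 counts against 0 and 2. Together these are at most 6 counts in a library for the NKT alpha chain. Of the 50-base windows of either transcript, 0% are found in no other V gene. How reads that fit both copies were counted is not stated, so these counts set no upper limit on this RNA. Trav1, used by the invariant alpha chain of mucosal-associated invariant T cells, had 12 and 10 counts in E4BP4-cKO-labelled libraries, against 20 and 9 counts in wild-type-labelled ones (log2 fold change -0.32, SE 0.59, adjusted p = 0.737 by edgeR). The log2 fold change of Trav1 was 0.49 without replicate 1 labelled wild-type and -0.86 without replicate 2 labelled wild-type, and it was called in neither fit. The beta segments that such cells favour are also common in other T cells. Trbv13-1 had 223 and 186 counts in E4BP4-cKO-labelled libraries, against 218 and 232 counts in wild-type-labelled ones. Trbv13-3 had 102 and 108 counts in E4BP4-cKO-labelled libraries, against 127 and 131 counts in wild-type-labelled ones. Trbv29 had 109 and 88 counts in E4BP4-cKO-labelled libraries, against 94 and 125 counts in wild-type-labelled ones. Trbv19 had 271 and 217 counts in E4BP4-cKO-labelled libraries, against 238 and 320 counts in wild-type-labelled ones. The groups overlapped in CPM for these 4 beta segments, with log2 fold changes from -0.16 to -0.03 and adjusted p from 0.733 to 0.941. The 4 NKT markers, Trav11 among them, were low, with a summed level of 2.54 and 2.40 CPM in E4BP4-cKO-labelled libraries, against 0.686 and 1.10 CPM in wild-type-labelled ones, and 0 of the 2 tested were called. Most of the sum came from these 2. Zbtb16 had 46 and 22 counts in E4BP4-cKO-labelled libraries, against 13 and 11 in wild-type-labelled ones. Klra1 had 18 and 20 counts against 0 and 15 in the same order, and Klrb1c had 1 or 2 counts in each library.

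Gamma V use was led by a single segment. Trgv2 (chromosome 13, minus strand), which lies beside Tcrg-C2 on the same strand, had 177 and 105 counts in E4BP4-cKO-labelled libraries, against 91 and 187 counts in wild-type-labelled ones. This was 66.5% and 62.5% of gamma V counts in E4BP4-cKO-labelled libraries, against 68.9% and 65.4% in wild-type-labelled ones. Gm16602, described in the table as a gamma variable gene, had 43 and 33 counts in E4BP4-cKO-labelled libraries, against 26 and 56 counts in wild-type-labelled ones. Tcrg-V4 had 37 and 27 counts in E4BP4-cKO-labelled libraries, against 9 and 38 counts in wild-type-labelled ones. The groups overlapped for the 3 segments, with log2 fold changes of 0.12 (SE 0.34), 0.02 (SE 0.41) and 0.58 (SE 0.61) and adjusted p from 0.538 to 0.979 by edgeR. That of Tcrg-V4 was -0.05 without replicate 1 labelled wild-type and 1.80 without replicate 2 labelled wild-type, with adjusted p of 0.973 and 0.146 by edgeR. The other 4 gamma segments, Tcrg-V3, Tcrg-V5, Tcrg-V6 and Tcrg-V7, had at most 5 counts in any library.

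Delta V reads were too few for shares to be compared, at 59 and 36 counts in E4BP4-cKO-labelled libraries and 44 and 53 in wild-type-labelled ones. The segments named for both alpha and delta are not among them. Trdv1 had 27 and 28 counts in E4BP4-cKO-labelled libraries, against 29 and 25 counts in wild-type-labelled ones. Trdv5 had 20 and 5 counts in E4BP4-cKO-labelled libraries, against 12 and 21 counts in wild-type-labelled ones, and 207 of its 438 exonic bases overlap Trdc on the other strand. Trdv4 had 10 and 3 counts in E4BP4-cKO-labelled libraries, against 1 and 6 counts in wild-type-labelled ones. The log2 fold changes were 0.15 (SE 0.40, adjusted p = 0.828) for Trdv1 and -0.35 (SE 0.60, adjusted p = 0.714) for Trdv5 by edgeR, and Trdv4 was too low to be tested. In all, 9 of the 152 V and C genes share exonic bases with another gene in the annotation, 7 of them with one on the other strand.

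The genes that work with the receptor were set beside its own. The CD3 chains carry the receptor to the surface and signal for it. Cd3d had 334 and 455 CPM in E4BP4-cKO-labelled libraries, against 278 and 297 CPM in wild-type-labelled ones (log2 fold change 0.45, SE 0.18, adjusted p = 0.136 by edgeR). Cd3g had 354 and 464 CPM in E4BP4-cKO-labelled libraries, against 291 and 321 CPM in wild-type-labelled ones (0.42, SE 0.17, adjusted p = 0.145). Cd247, the zeta chain, had 109 and 191 CPM in E4BP4-cKO-labelled libraries, against 89.3 and 91.9 CPM in wild-type-labelled ones (0.73, SE 0.27, adjusted p = 0.117). For these 3 genes the groups did not overlap, and replicate 2 labelled E4BP4-cKO was again the highest library. Cd3e had 173 and 240 CPM in E4BP4-cKO-labelled libraries, against 219 and 203 CPM in wild-type-labelled ones (-0.03, SE 0.18, adjusted p = 0.924), and its groups overlapped. The coreceptor gene Cd4 had 564 and 768 CPM in E4BP4-cKO-labelled libraries, against 487 and 529 CPM in wild-type-labelled ones (0.39, SE 0.18, adjusted p = 0.190). Genes of receptor assembly in the thymus were at or near 0. Ptcra, the surrogate alpha chain of immature thymocytes, and Rag2 had 0 counts in every library, and Rag1, the other chain of the recombinase, had 1 count in 1 library. Dntt, which adds bases at the joins, had 1 and 5 counts in E4BP4-cKO-labelled libraries, against 16 and 11 counts in wild-type-labelled ones (log2 fold change -1.998, SE 0.85, adjusted p = 0.156 by edgeR). Of these 11 genes of the receptor complex, the coreceptors and assembly, 8 were tested and 0 were called.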

How the data were processed

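The data were whole-number read counts per gene in 4 libraries, deposited by the authors as 1 table without normalisation. Per the submitters' processing notes, which list no versions, the tools were featureCounts, HISAT2 and CASAVA on build mm10. Not given in the sources used here are the annotation release, the strand setting and how multi-mapping reads were handled. Gene lengths were used as deposited. All 152 V and C genes had the same start, end and strand in GENCODE M21 on GRCm38, from which exons and sequences were read.

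Groups and replicate numbers follow the labels. The test was edgeR 4.0.16 (glmQLFit, glmQLFTest) in R 4.3.3 with TMM factors and filterByExpr, on all genes, without covariates, and Benjamini-Hochberg adjusted p under 0.05 made a call. Standard errors were derived from the F statistic. CPM and shares were computed from the counts, and shares carry 95% Wilson intervals. Alternatives used other scalings, no filter, DESeq2 1.42.0, limma 3.58.1 (voom), each library left out, a replicate block, and the V total of the locus as library size. The fit was tested on simulated data.

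Members and lists were chosen with earlier results of these data known. Named were all C genes, any V segment called, the 6 alpha and 6 beta and 3 gamma and 3 delta V segments of highest mean CPM, the V segments of invariant or innate-like T cells, and 11 genes of the receptor complex, coreceptors and assembly.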

Additional observations from a re-analysis of the deposited data

How the results depend on the processing

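Of the 81 V and C genes tested, 0 were called in either direction in edgeR under DESeq2 size factors, total library size or upper-quartile factors. The same held for limma-voom, the V total of the locus as library size, and the replicate block. Replicate 1 deviations correlated at 0.0578 between groups, which cannot show whether libraries of the same number were handled together. A block for the split by Xist was not fitted. Without the filter 2 were called higher and 3 lower, and DESeq2 called 1 higher. Leaving out each library gave 0 to 1 called higher (Trav13n-2, without E4BP4-cKO replicate 1) and 0 to 1 lower (Trav3d-3, without wild-type replicate 2), each time a segment whose counts lie mostly in 1 library. With V segments summed by family, 0 of 37 were called, 1 higher (Trbv14) without the filter and 1 higher with DESeq2.

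The log2 ratios of summed CPM, with 1 library left out, ran from -0.14 to 0.39 for alpha V, -0.055 to 0.42 for Trac, -0.065 to 0.17 for beta V, -0.049 to 0.23 for beta C, -0.21 to 0.68 for gamma V, -0.42 to 0.40 for gamma C, -0.058 to 0.15 for delta V and -0.45 to 0.053 for delta C, so that none keeps its sign. The excess of the alpha V distance across groups over that within groups was 0.98 percentage points, and -0.63 with segments summed by family; the cause was not tested. Calls among all genes numbered 246 higher with 74 lower where E4BP4-cKO replicate 2 was left out, and 528 with 175 where wild-type replicate 1 was. With total library size 1033 were called higher and 1636 lower, and the median over all genes was -0.07. Without the filter 2680 and 2237 were called, and with DESeq2 1824 and 1667. Of 420 alternative fits of the 35 named genes tested, 37 changed sign, none with a call. An interval within 2-fold was reached by 3 of the 50 alpha V segments and 0 of the 2 delta V segments tested, and by what rule reads of identical copies were counted is not stated.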
